A study of Mus musculus with 21 samples.

Results

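Of the 32052 loci in the deposited expression table, 203 had a mean of at least 100 total fragments per library but a compatible mean of exactly 0. A compatible fragment is one that matches the exon structure of an annotated transcript, whereas the total counts every fragment assigned to the locus. The 203 loci were chosen by these 2 values alone, so their levels are a description and no test was made on them. Among the 11327 loci with at least 100 total fragments they made up 1.79%, and among all loci 0.633%. The RNA came from circumvallate taste buds, the sensory organs in the trench of the papilla at the back of the tongue, of wild-type C57BL/6J mice aged 20 to 24 weeks. Each of 3 feeding states (Ad lib, Hungry and Satiated) was represented by 7 libraries, 21 in all, from oligo(dT)-primed cDNA of dissected papillae. The labels do not say how long the Hungry mice were without food or whether a library is 1 mouse.

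The table lists 3 conditions, but 0 loci differed between them in any value column. Each level below is therefore the authors' mean over all 21 libraries, scaled by library size factors. The table gives no level per library, so no fed or fasted value, SD or test over libraries can be given for any locus. The coefficient of variation (CV) is the square root of the authors' variance of total fragments divided by their mean. Whether that variance was taken over all 21 libraries or within feeding states is not stated, so a CV here is the table's own spread. All 7 taste bud markers checked, Gnat3, Trpm5, Plcb2, Pkd2l1, Car4, Entpd2 and Krt8, had compatible fragments, from 1089 to 37058 at their loci.

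Many of the 203 loci were genes of short noncoding RNAs. Small nuclear RNAs such as U1, U2 and U6 form the spliceosome, which removes introns from pre-mRNA. Small nucleolar RNAs guide chemical modification of ribosomal RNA: H/ACA box RNAs guide pseudouridylation and C/D box RNAs guide 2′-O-methylation. Most of these RNAs carry no poly(A) tail, and mammalian genomes hold many scattered copies and pseudogenes of them.

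The sequences of 5 loci show the kinds of RNA in the set. They are printed 5′ to 3′ on the gene's strand, as DNA letters from GENCODE M21 transcripts on GRCm38. Capitals mark the letters ACA near the 3′ end of Gm24069. They were sought as letters alone and do not by themselves make it an H/ACA box RNA. The first 3 are the highest small nuclear, small nucleolar and U2-like loci, and no part of them is capitalised. Gm24069 is the highest match to Snora17, and Gm14297 is 1 of a pair of identical pseudogenes near the median total.
Gm24459 (chr8:124357238-124357323, plus strand): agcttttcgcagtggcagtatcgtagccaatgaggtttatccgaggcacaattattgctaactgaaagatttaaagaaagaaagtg
Gm22276 (chr6:7879563-7879691, plus strand): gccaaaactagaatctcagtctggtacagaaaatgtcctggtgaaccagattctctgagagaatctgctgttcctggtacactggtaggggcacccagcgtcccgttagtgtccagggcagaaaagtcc
Gm22984 (chr14:99352048-99352169, minus strand): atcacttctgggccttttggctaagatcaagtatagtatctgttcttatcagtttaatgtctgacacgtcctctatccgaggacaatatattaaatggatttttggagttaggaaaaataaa
Gm24069 (chr12:39461530-39461656, plus strand): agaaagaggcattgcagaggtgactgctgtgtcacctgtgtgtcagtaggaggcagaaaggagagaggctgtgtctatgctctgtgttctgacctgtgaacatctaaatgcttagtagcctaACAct
Gm14297 (chr2:175401664-175401954, minus strand): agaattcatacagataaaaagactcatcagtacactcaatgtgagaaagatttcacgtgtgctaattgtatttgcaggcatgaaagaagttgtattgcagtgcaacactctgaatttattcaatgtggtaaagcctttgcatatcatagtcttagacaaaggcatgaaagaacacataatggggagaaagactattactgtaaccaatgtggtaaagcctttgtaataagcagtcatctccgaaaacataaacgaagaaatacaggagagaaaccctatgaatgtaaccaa
Gm14297 is the pseudogene whose sequence is shared with a second locus described below.

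Most of these loci were short. The median exon length of the 203 loci was 164 bases, against 3405 bases for the other 11124 loci with at least 100 total fragments. A span under 300 bases was found at 115 of the 203 loci, 56.7%, and at 31 of the 11124 others, 0.279%. Single-exon loci made up 71.9% of the 203 (146 loci) and 5.78% of the others. Among loci with at least 100 total fragments, the share with 0 compatible fragments was 83.3% for transcripts under 100 bases (20 of 24) and 86.7% from 100 to below 150 bases (78 of 90). It was 63.6% from 150 to below 200 bases and 48.1% from 200 to below 300 bases. From 300 bases on it was lower in each class: 14% below 500 bases, 4.05% below 1000, 1.01% below 2000 and 0.209% at 2000 bases or more. Length was not used to choose the loci, but loci are not replicates, so these shares carry no test.

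**Figure D1:**
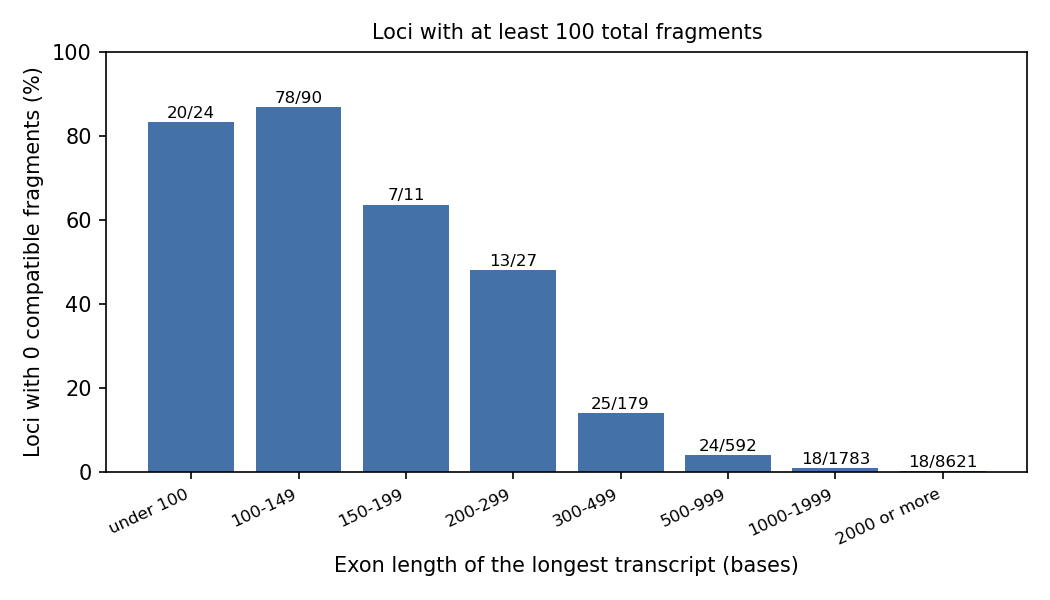
The share of loci with 0 compatible fragments (bars, percent) is plotted against the exon length of the longest transcript in bases, among loci with at least 100 total fragments, with counts above the bars. The 2 bars under 150 bases are the highest, at 83.3% and 86.7%, and the bar from 2000 bases lies at 0.209%.

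By the biotype that GENCODE M21 gives their gene, 104 of the 203 loci were short RNA genes, 51.2%, against 16 of the 11124 others. They comprised 35 small nuclear, 30 small nucleolar, 24 microRNA, 7 ribosomal and 7 miscellaneous short RNA loci and 1 small Cajal body RNA locus. The other 99 loci were 31 pseudogenes, 29 protein-coding genes, 23 long noncoding genes, 6 models of the TEC class, which GENCODE keeps for transcripts awaiting experimental proof, 2 loci of several biotypes and 8 genes not in that release. Gene names alone show little of this, since 160 loci carry a predicted or clone name and 14 a recognisable short RNA name. Among all loci of each class with at least 100 total fragments, those with 0 compatible made up 35 of 37 small nuclear, 30 of 34 small nucleolar, 24 of 33 microRNA and 7 of 7 ribosomal loci. The corresponding share was 7.58% for pseudogenes and 0.405% for protein-coding loci.

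Reaching 100 total fragments was rare within each short RNA class. The 35 small nuclear loci were 4.25% of the 824 such loci in the table, of which 84 were listed at 0 in total and 657 had 0 compatible with a total above 0 but below 100. The 30 small nucleolar loci were 3.76% of 798, and the 24 microRNA loci 3.45% of 695. Compatible fragments were scarce throughout: of 2676 short RNA loci under 300 bases, 180 had any and 1 had a mean of 10 or more. That locus, Mir1897, had 14.04 compatible of 31.4 total fragments. A further 2871 short RNA symbols lay at loci shared with other genes, where their own fragments cannot be told apart. Such are the genes that host nucleolar RNAs in their introns: 11 of 19 listed host genes, among them Gas5 and Snhg1, were found, all at shared loci, and these loci had 60.4 to 9765 compatible fragments.

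Total fragments were concentrated in a few loci. Their sum over the 203 loci was 174483 fragments, 0.734% of all total fragments and 9.24% of all fragments that were not compatible. The median locus had 241 total fragments, with quartiles of 149 and 509. Fewer than 200 fragments were found at 84 loci and at least 1000 at 23 loci. The 5 highest loci together held 53% of the sum, and Gm24459 alone held 33.9%.

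**Figure D2:**
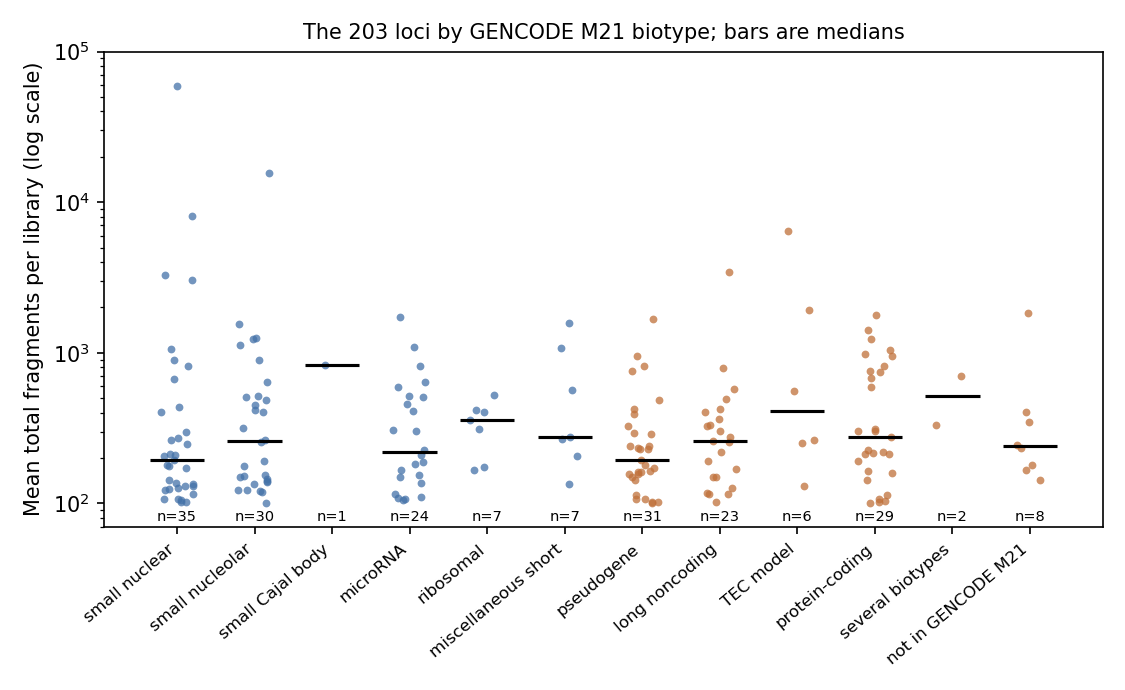
Each point is 1 of the 203 loci, placed by GENCODE M21 biotype and by mean total fragments per library on a log axis, with black bars at the class medians. Blue points are short RNA biotypes and orange points the rest. Of the 203 loci, 23 lie at 1000 fragments or more, and the highest points are Gm24459 at 59117, Gm22276 at 15512 and Gm22984 at 8033.

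Small nuclear RNA loci held 46.9% of the summed fragments, mostly through Gm24459. This single-exon gene of 86 bases had 59117 total fragments with a CV of 0.0379, which placed it 12th by total among all loci of the table. Its CV was the lowest of the 5135 loci with at least 1000 total fragments, whose median CV was 0.139. For the 902 loci with at least 5000 total fragments the median CV was 0.115. The nearest other locus, Pgbd5, lay 11725 bases away and had 483 total fragments. None of the 1548 named short RNA genes compared matched Gm24459 over at least 70% of its length. Its opening bases resemble those known from U4, the spliceosomal RNA that pairs with U6, but no gene named as U4 stood among those compared, so no identity was computed.

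Gm22984 followed among small nuclear loci with 8033 total fragments and a CV of 0.132. Its 122 bases match Rnu2-10, a U2 gene, at 93.9% of aligned bases, and U2 pairs with the intron's branch point. Matches to U6, the catalytic RNA of the spliceosome, numbered 28 loci. Gm25599 led them with 3266 total fragments and a CV of 0.246, at 83.1% identity over 71.8% of its length, followed by Gm25670 with 3029 and a CV of 0.182. Gm25696 and Gm24424 had 1053 and 816, and the lowest, Gm26501, had 102. The U6 median was 188 fragments, and the 2 loci identical to Rnu6, Gm25064 and Gm24540, had 138 and 124. The loci identical to Rnu6 were thus not those with the most fragments, as the plot of total against identity shows. Gm22628, a U6 match with 404 fragments, had the third highest CV of the 203 loci, 0.913.

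The closest named gene of 3 loci was Rnu1a1, a U1 gene. Gm25699 matched it at 72.5% and had 896 fragments, Gm23845 matched at 76% and had 437, and Gm25818 matched at 95.1% and had 106. U1 recognises the 5′ splice site. U6 matches made up 26.9% of the 104 short RNA loci and 20.2% of the 2363 short RNA loci below 100 total fragments.

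**Figure D3:**
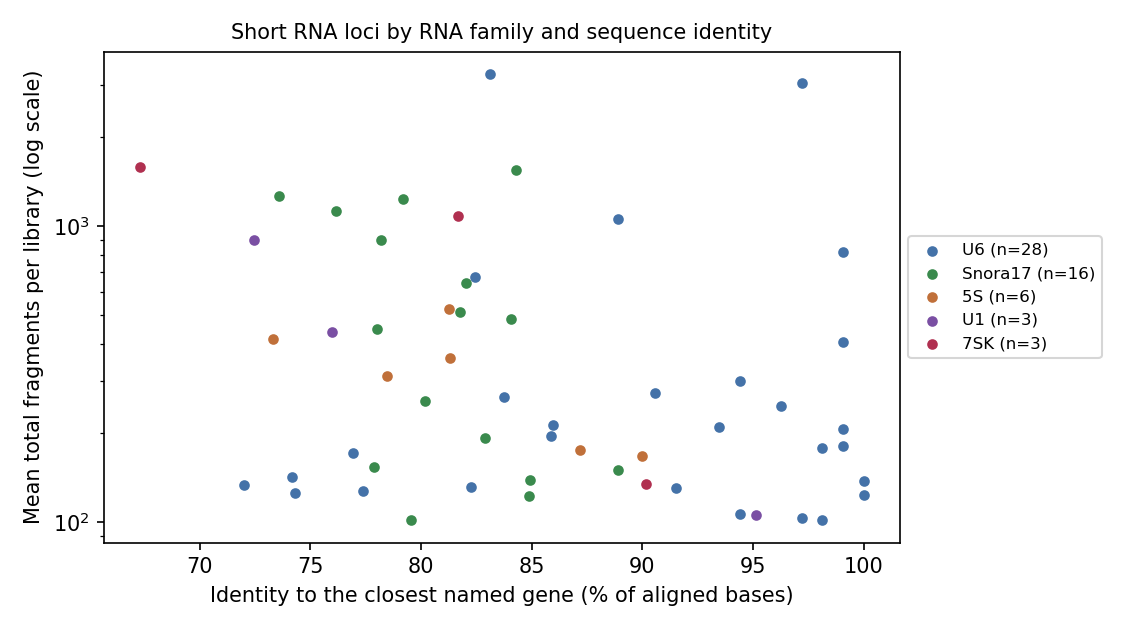
Mean total fragments per library (log axis) is plotted against percent identity to the closest named gene for the U6, Snora17, 5S, U1 and 7SK families. The 2 U6 loci at 100% identity lie at 138 and 124 fragments, below several U6 loci of lower identity.

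Small nucleolar RNA loci held 15.9% of the summed fragments, mostly through Gm22276. This gene of 129 bases had 15512 total fragments with a CV of 0.162, and it matched no named gene over 70% of its length. The letters ACA were absent from its last 10 bases. TGATGA, the C box letters, was absent from its sequence, while CTGA, the D box letters, was present. The nearest locus, C1galt1 on the same strand, lay 7515 bases away with 1244 total fragments. Snora17, an H/ACA box RNA, was the closest named gene for 16 of the 30 loci, at 73.6% to 88.9% identity. Gm24069 led these with 1543 fragments and a CV of 0.107, then Gm22223 with 1261, Gm23128 with 1235 and Gm26349 with 1126. The lowest was Gm26341 with 101. Snora17 matches were 15.4% of the 104 loci and 17.1% of the short RNA loci with fewer fragments, so the shares were close.

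Other nucleolar families were present by 1 locus each. Gm24613 matched Snora65 at 98.5% and had 521 fragments, Gm23626 matched Snora9 at 95.6% and had 264, and Gm26326 matched Snora33 at 91.5% and had 145. Gm24948 matched Snora73b at 79.2% and had 178. Mir3096, whose biotype is small nucleolar, matched the C/D box gene Snord93 at 98.6% and had 418. Gm23927 matched a U3 gene at 96.3% with 120 fragments and a CV of 0.791. U3 is needed for the early cleavages of ribosomal RNA. The remaining nucleolar loci, like Gm22276, matched no named gene over 70% of their length. The letters ACA lay in the last 10 bases of 20 of the 30 nucleolar loci, against 49.2% of 720 nucleolar loci of like length below 100 fragments. They also lay there in 5 of the 24 microRNA loci, so these letters alone do not mark an H/ACA box RNA. The C box letters TGATGA were found in 4 of 30, against 21.7%, and the D box letters CTGA in 23 of 30, against 83.5%. All were sought as letters alone, on the gene's strand only. Scarna17, the 1 small Cajal body RNA locus, had 833 fragments with a CV of 0.196 and lay 91 bases from Gm23119, which had 0.614. On the other strand Acaa2, with 1719 total fragments, lay 727 bases away.

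Ribosomal and miscellaneous short RNA loci had medians of 358 and 275 total fragments, above those of small nuclear loci, 195, and small nucleolar loci, 261. Of the 7 ribosomal loci, 6 matched 5S genes at 73.3% to 90% identity. Gm23558 led them with 523 fragments, then n-R5s61 with 415, n-R5s153 with 358 and Gm22224 with 311, and the lowest was n-R5s60 with 168. The locus named as 5.8S, n-R5-8s1, had 405. Both RNAs are parts of the large ribosomal subunit. The closest named gene of 3 miscellaneous loci was Rn7sk, whose RNA, 7SK, holds the elongation factor P-TEFb inactive. Gm24444 matched it at 67.3% and had 1577 fragments, Gm23884 matched at 81.7% and had 1078, and Gm23624 matched at 90.2% and had 135. Gm22508 matched the Y RNA gene Rny1 at 87.7% and had 565. Gm25403 matched the vault RNA gene Vaultrc5 at 91.5% and had 206. Gm24733 and Gm22227 matched no named gene and had 275 and 270.

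MicroRNA loci held 5.35% of the summed fragments. Each value is the total at the locus of a hairpin gene, not the level of the hairpin or of a mature microRNA. None of these fragments was compatible with the annotated transcript, and where they lay is not known. Gm22468 had the most, 1734 fragments with a CV of 0.158, and lay 18 bases from Ddit4l, whose locus had 1530 total fragments. Near-identical copies of Gm22468 numbered 60 genes, among them Gm22029 at full identity, which lies in a longer locus where its own fragments cannot be told apart. Next came Mir6356 with 1098, Mir6378 with 816, Gm24025 with 637 and Mir5112 with 595, and the lowest was Mir21c with 105. Gm25591 had 507 with a CV of 0.0968.
RefSeq mature sequences (GRCm38.p6) matched 4 of the named loci shown here, and capitals mark the seed, bases 2 to 8, through which a microRNA pairs with its targets.
let-7c-5p: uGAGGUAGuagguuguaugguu
let-7c-2-3p: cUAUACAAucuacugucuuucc
miR-7216-5p: uGGAGAGCuggcagaggacccaga
miR-7216-3p: uGGAAUUUggucuuuuccggc
miR-467h: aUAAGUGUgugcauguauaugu
miR-21c: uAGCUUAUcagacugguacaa
No seed was shared among these. Mirlet7c-2, a gene of the let-7 family that restrains proliferation, had 516 fragments with a CV of 0.213 and lay 621 bases from Mirlet7b, whose locus had 11.0. GENCODE M21 places Mirlet7c-2 inside Lncppara on the same strand. Mir7216 had 460, inside Gm10505 on the same strand, and Mir467h had 107.

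Near-identical copies make single loci uncertain. A copy was counted where another gene's transcript matched at 95% or more of bases over 95% or more of the length. Of 181 loci whose transcript sequence could be matched, 35 had at least 1 copy, 25 of them short RNA loci and 10 others. Gm25064 and Gm24540 had 193 copies each, Gm24424 had 183 and Gm25670 had 150. The closest copy of Gm24613 was a transcript of Rpl12, at 99.2%, whose locus had 6579 total fragments. That of Gm25818 was Gm24924, at 95.7%, with 3013 total fragments at its locus. Elsewhere the closest copy could have fewer fragments, as for Gm25670, whose copy Gm23732 had 6.20. Pseudogenes Gm14297 and Gm14307, of identical sequence and 291 bases each, had 240.794 and 240.803 total fragments with CVs of 0.300 and 0.302. Gm14298 and Gm16362, of 237 and 214 bases, had 230.5 and 230.1. Gm16362 matched Gm14298 at full identity and Gm14298 matched Gm14297 at 99.6%. These pseudogenes are thus related copies, not independent pairs. The values were almost equal within each pair, and how fragments matching several places were assigned is not given in the sources used here. For small nuclear loci 40% had a copy, against 26.3% of those below 100 fragments. For small nucleolar loci the shares were 13.3% and 21.3%.

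The longer loci were led by a TEC model and a long noncoding gene. RP23-255L15.1, a single exon of 363 bases (chromosome 11, 9705261 to 9705623, minus strand), had 6445 fragments with a CV of 0.155. The nearest locus, Abca13 on the plus strand, was 21001 bases away with 21877 total fragments. The long noncoding gene 1700031P21Rik (chromosome 12, 52599981 to 52602322) had 3447 fragments with a CV of 0.116. RP24-335B5.1 (chromosome 1, 14109215 to 14112819) had 1928, and Gm29465 (chromosome 5, 75347388 to 75353252), which GENCODE M21 lacks, had 1837. Pseudogenes were led by Gm6214 with 1674 fragments, then Gm16571 with 957, Gm16186 with 822 and Vmn1r-ps152 with 752 and Gm26915 with 486, and the lowest, Gm5702, had 101. After 1700031P21Rik, the long noncoding loci with the most fragments were Gm13490 with 788, Gm29137 with 574, Gm13686 with 490 and Gm14317 with 425, and the lowest was RP23-286J21.1 with 102. The other TEC models were RP23-348K1.1 with 555, CH25-441A19.1 with 265, RP23-329A21.1 with 250.5 and RP24-273H20.1 with 131. Of the genes that GENCODE M21 lacks, Gm25003 had 406, Gm29004 347, RP23-472H1.1 245 and Gm23913 233, and RP24-559A16.1 had the fewest, 143. The 2 loci of several biotypes, 1 with E130006D01Rik and 1 with Gm14466 among its genes, had 703.4 and 332.8.

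Protein-coding loci with 0 compatible fragments numbered 29, and several are known from other organs. Their totals ran from 101 to 1769 with a median of 277, and their spans from 930 to 272684 bases, introns included. Actbl2, an actin-like gene of 1 exon, led with 1769 fragments and a CV of 0.242. Gm21950 had 1408 and had 18 near-identical copies. Prmt8, a brain arginine methyltransferase, had 1229 over a span of 80462 bases, or 15.3 fragments per kb of span. Adamts19, a secreted metalloprotease, had 1046 over 216915 bases with a CV of 0.0950, or 4.82 per kb. Where in these spans the fragments lay is not given by the table. Another gene of GENCODE M21 overlapped 6 of the 29 loci. It lay on the other strand at Prmt8, Atp4b, Bank1 and Gm2310, and on the same strand at Prr9 and Drc1.

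Genes of secreted or epithelial proteins were among them. Defb48, a beta-defensin, had 976 fragments, Atp4b, a subunit of the gastric proton pump, 757, and Tff3, a mucosal trefoil peptide, 311. Cdh16, a kidney cadherin, had 596 and Slc38a4, an amino acid transporter, 682. Odorant receptor genes Olfr857, Olfr460 and Olfr902 had 953, 303 and 142, and Olfr857 shares 96.4% of bases with Olfr858-ps1. Immune genes Bank1, a B cell scaffold, and C6, a complement component, had 225 and 103. Asmt, the last enzyme of melatonin synthesis, had 216 with a CV of 0.526. Prr9, of the epidermal differentiation region, had 163 with a CV of 0.811. The lowest was Pmfbp1 with 101.

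The CV was lower at higher levels. The median CV of the 203 loci was 0.318, with quartiles of 0.231 and 0.425. From 100 to 200 total fragments the median CV was 0.417 for these loci and 0.383 for the 1359 other loci of that level. From 200 to 500 it was 0.315 against 0.267, from 500 to 1000 it was 0.212 against 0.194, and from 1000 on it was 0.178 against 0.139. The median was thus higher in each of these ranges, without a test, since the table holds no values per library. The quartiles overlapped in every range. From 100 to 200 they were 0.323 and 0.477 for these loci, and 0.309 and 0.493 for the others. Levels were not matched within a range, and the range from 1000 on has no upper limit. The lowest CVs belonged to Gm24459, Adamts19 and Gm25591. The highest were 0.972 at Gm29051, 0.952 at RP24-380G11.1 and 0.913 at Gm22628. Variance exceeded the mean at all 203 loci, by at least 2.74 times.

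**Figure D4:**
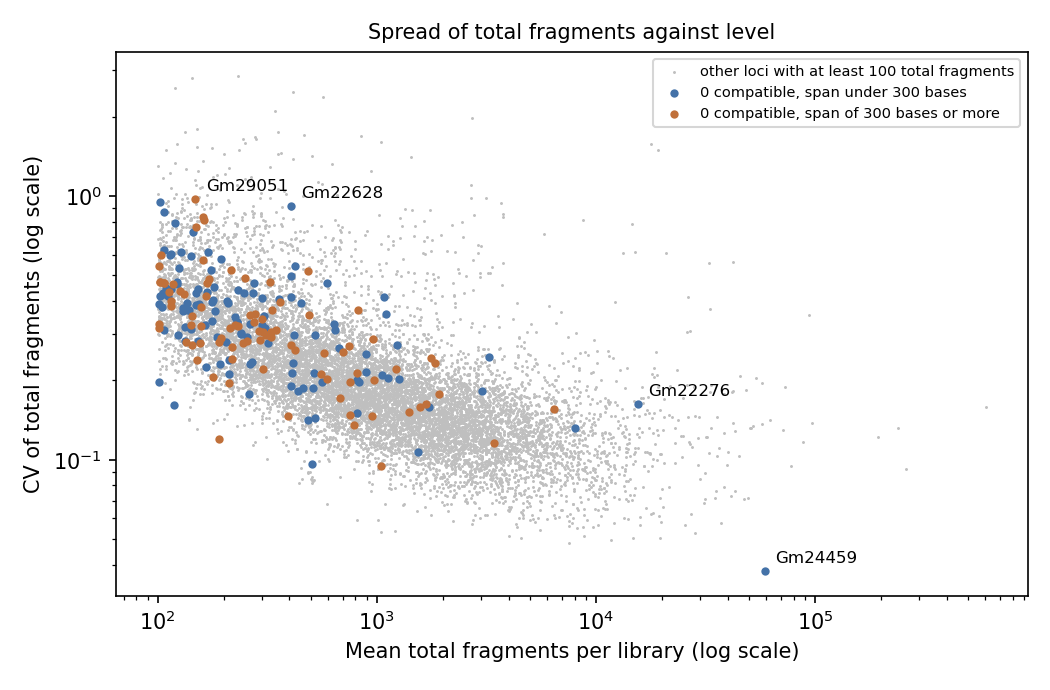
The CV of total fragments is plotted against mean total fragments, both on log axes, for the 203 loci (blue under 300 bases, orange from 300 bases) and for the other loci with at least 100 total fragments (grey). Gm24459 lies at 59117 fragments and a CV of 0.0379, under the grey points of like level.

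The median distance of the 203 loci to the nearest locus was 35875 bases, against 4255 bases for the other loci with at least 100 total fragments. Only 0.279% of those others spanned fewer than 300 bases. Distances of short RNA loci below 100 fragments were not summarised, so the difference cannot be called particular to the 203. A locus with more total fragments lay within 5 kb of 7 of the 203, 3.45%, and of 20.3% of the others. None lay inside another locus of the table, because no locus of the table overlaps another. GENCODE M21 gave 22 of them a position wholly inside another gene, as for Gm24889 in 4930591E09Rik and for Gm25818 in Creb5. Among short RNA loci under 300 bases that share was 15.7% for the 102 loci. It was 14.2% for the 2394 such loci with 0 compatible and a total below 100, so the shares were close. Split by total, it was 9.74% for the 1910 of these with a total above 0, and 31.6% for the 484 listed at 0. As a share of each chromosome's loci, the 203 ranged from 0.0654% on Y, 1 locus, to 1.84% on chromosome 18, 11 loci.

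Just above the limit of 100 total fragments lay Gm5702 with 101.304, Pmfbp1 with 101.379 and Gm26341 with 101.397. Just below it lay Olig3 with 99.6, 1700012I11Rik with 99.4 and Gm22604 with 99.1, all with 0 compatible fragments.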

How the data were processed

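The submitters' processing notes name TopHat and Bowtie2, Cufflinks, Cuffdiff, Trimmomatic and FastQC, with GRCm38.p4 as the build and no version of any tool. Per the file headers, the deposited columns are those of Cuffdiff's variance model. For each locus they give the authors' mean and variance of fragments after scaling by size factors. They are not divided by length. No source used here gives the divisor of the variance or the libraries it was taken over. The members, gene lists and comparisons were chosen with earlier results of these data known.

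Loci were joined to the deposited merged annotation by position and to biotypes of GENCODE M21 (GRCm38) by transcript identifier. Transcript sequences of GENCODE M21 were used only where their length equalled the deposited exon length. BLAST 2.17.0 on the plus strand, with word sizes of 16 for copies and 7 for named genes (E-value at most 0.001, at least 70% of the query), compared them. Simulated data, with loci planted at 0 compatible fragments, checked only the code that selects loci and computes the CV. All other simulated loci were given a compatible share above 0, so the outcome of the selection was fixed in advance. No test over libraries was possible, because the table holds no value per library. Genes were named by rule (the highest 15 by total, the highest 5 and the lowest of each class, the extremes of CV and the loci nearest the limit); other genes were chosen after their values were seen. Tables were handled with pandas 2.3.3 and numpy 2.4.6 under Python 3.11.15, and plots were drawn with matplotlib 3.10.9.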

Additional observations from a re-analysis of the deposited data

How the results depend on the processing

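The number of loci with 0 compatible fragments was 347 with a limit of 50 total fragments, 119 with a limit of 200 and 305 when a compatible mean below 1 was also allowed. Loci under 300 bases then numbered 192 and 65 for the first pair of limits, against 115, and 104, 128 and 118 with length limits of 200 or 500 bases or by exon length. Recognisable short RNA names numbered 14, or 23 with a limit of 50, while biotypes gave 104. The median CV of 0.318 was 0.332 for loci under 300 bases, 0.305 for longer ones, 0.402 with a limit of 50 and 0.271 with 200. The median total of 241 was 231 for loci under 300 bases, 261 for longer ones, 123 with a limit of 50, 424 with 200 and 224 with a compatible mean below 1. Loci inside another gene numbered 0 by the table's loci, and 22 by GENCODE M21, a comparison added after seeing the data. The limits change these values by their construction, since they admit more or fewer loci. No paired analysis was possible because the table holds no values per library. For the same reason no library could be left out, and the depth of a single library is unknown.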

Other observations

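A further 102 loci had at least 100 total fragments and a compatible mean above 0 but below 1, and 15 of them spanned fewer than 300 bases. Gm26015, a small nucleolar RNA locus of 125 bases, had 2460 total and 0.0417 compatible fragments. Npy, the gene of the appetite-stimulating neuropeptide Y, had 1482 total and 0.336 compatible fragments with a CV of 0.352. Pgpep1l had 2625 total and 0.490 compatible fragments. The desmosomal cadherin gene Dsg4 had 625 total and 0.504 compatible fragments with a CV of 1.32.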
